A study of Homo sapiens with 4 samples.

Results

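The genes described here are 42 glycolytic enzymes, glucose and lactate transporters, oxygen-sensing genes and known targets of the hypoxia-inducible factors (HIF), chosen by gene symbol. All 42 were listed among the 19775 genes of the deposited table. RNA was polyadenylated RNA from H1, an established line of human embryonic stem cells labelled as wild type. The cells were grown in E8, a defined medium of DMEM/F12 with FGF2, TGFβ, transferrin, insulin, ascorbic acid and selenite, and XMD892, a small molecule used to inhibit the kinase ERK5, was added at 1 µM for 12 h. The series labels 2 libraries with XMD892 for 12 h and 2 libraries with E8 for 12 h, all from the same line. Columns that could be tied to those labels were found for the XMD892 libraries, called replicate 2 and replicate 1 here. The E8 libraries were not analysed here, so nothing below is an effect of XMD892, and which of the treated libraries lies closer to untreated cells was not tested. Whether the pair of libraries stems from separate cultures is not stated in the labels, so their spread may be technical.

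Glycolysis splits glucose into pyruvate in the cytosol, and lactate dehydrogenase turns pyruvate into lactate that leaves the cell with a proton. Primed pluripotent stem cells are known for a high glycolytic rate even in air. HIF is a pair of an oxygen-labile alpha subunit (HIF1A or EPAS1) and the stable partner ARNT. Prolyl hydroxylases of the EGLN family mark the alpha subunit for destruction by VHL when oxygen is present. In low oxygen the alpha subunit escapes, binds DNA at a short core motif and raises transcription of glycolytic genes, of its own hydroxylases and of genes for blood vessel growth, pH control and the removal of mitochondria. This control acts on the alpha protein, so a transcript level of HIF1A does not measure HIF activity.

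The depth was 20217648 reads in replicate 2 and 18528689 in replicate 1, counted over the listed genes. All 12 markers of pluripotent stem cells reached 1 RPKM (reads scaled to the gene's merged exon length and to the library's depth) in both libraries, with summed levels of 3006 RPKM in replicate 2 and 2673 RPKM in replicate 1. That excess rests on POU5F1, the 1 marker past 2-fold, at 1430 RPKM in replicate 2 and 734 RPKM in replicate 1. By normalized counts 6 of the 12 were higher in each library, and SALL4, DNMT3B and PODXL were 1.81-fold, 1.62-fold and 1.59-fold higher in replicate 1. Reads on the 13 protein genes of the mitochondrial genome made up 5.34% in replicate 2 and 4.81% in replicate 1. Of 14 fibroblast and mesenchymal markers 9 were listed, and 4 of those passed 1 RPKM in each library. None of the 9 was at 0, and their summed level was 15.8 RPKM in replicate 2 and 83.0 RPKM in replicate 1. COL3A1, LUM, DCN, POSTN and TWIST1 were not listed. The largest part of the gap was TAGLN, an actin-binding protein, at 5.34 RPKM in replicate 2 and 62.2 RPKM in replicate 1. The collagen COL1A1 was past 2-fold as well, at 0.987 RPKM in replicate 2 and 7.85 RPKM in replicate 1. Of the 8 markers with enough reads to be tested, 6 were higher in replicate 1 and the other 2 in replicate 2. Among all 16148 tested genes 7739 were higher in replicate 1. Of 7 endothelial and blood markers 2 were listed and none reached 1 RPKM in both libraries. The mesenchymal markers were thus mostly higher in the library in which most of the genes below were lower, and their part in the differences was not tested. In bulk RNA, fewer cells of a type and less RNA per cell cannot be told apart.

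Glycolytic transcripts were abundant in these cells. Every one of the 21 genes of glucose transport, glycolysis, lactate formation and lactate export passed 1 RPKM in each library. Their median level was 90.7 RPKM, and that of all genes for which a length was known was 2.31 RPKM. GAPDH, the enzyme that makes NADH in glycolysis, stood at 1299 RPKM in replicate 2 and 937 RPKM in replicate 1 (mean 1118 ± 257, SD, n = 2). The enolase ENO1 followed at 469 RPKM in replicate 2 and 388 RPKM in replicate 1. The lactate dehydrogenase subunit LDHB was at 476 RPKM in replicate 2 and 377 RPKM in replicate 1. Triose phosphate isomerase, TPI1, was at 399.6 RPKM in replicate 2 and 276 RPKM in replicate 1, and phosphoglycerate mutase PGAM1 at 248 RPKM in replicate 2 and 194 RPKM in replicate 1. These 5 genes, the highest by mean level, were therefore all higher in replicate 2, each by less than 2-fold. The aldolase ALDOA, at a mean of 219 RPKM against 221 RPKM for PGAM1, was not. The ratio of replicate 2 to replicate 1 was 1.30 (95% counting interval 1.28 to 1.31) for ENO1, 1.37 (1.33 to 1.41) for PGAM1 and 1.55 (1.52 to 1.59) for TPI1. On the log2 scale GAPDH differed by 0.57 (0.56 to 0.59). The 21 regulators and HIF targets were scarcer, with a median of 4.22 RPKM, and 15 of them reached 1 RPKM in both libraries. HIF1A had the highest mean of them, at 49.7 RPKM in replicate 2 and 46.1 RPKM in replicate 1, although BNIP3 exceeded it in replicate 2. The lowest mean was that of CA9, a surface carbonic anhydrase and a classical hypoxia marker, on 13 reads in replicate 2 and 6 in replicate 1, or 0.385 RPKM in replicate 2 and 0.194 RPKM in replicate 1. Together the 42 genes took 1.82% of the reads in replicate 2 and 1.33% in replicate 1. Merged exon length understates genes with long rare isoforms. With the longest transcript as the length, PKM at a mean of 346 RPKM, ALDOA at 339 RPKM and LDHA at 329 RPKM passed PGAM1 at 309.9 RPKM, while GAPDH, ENO1, LDHB and TPI1 kept the top places.

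**Figure D1:**
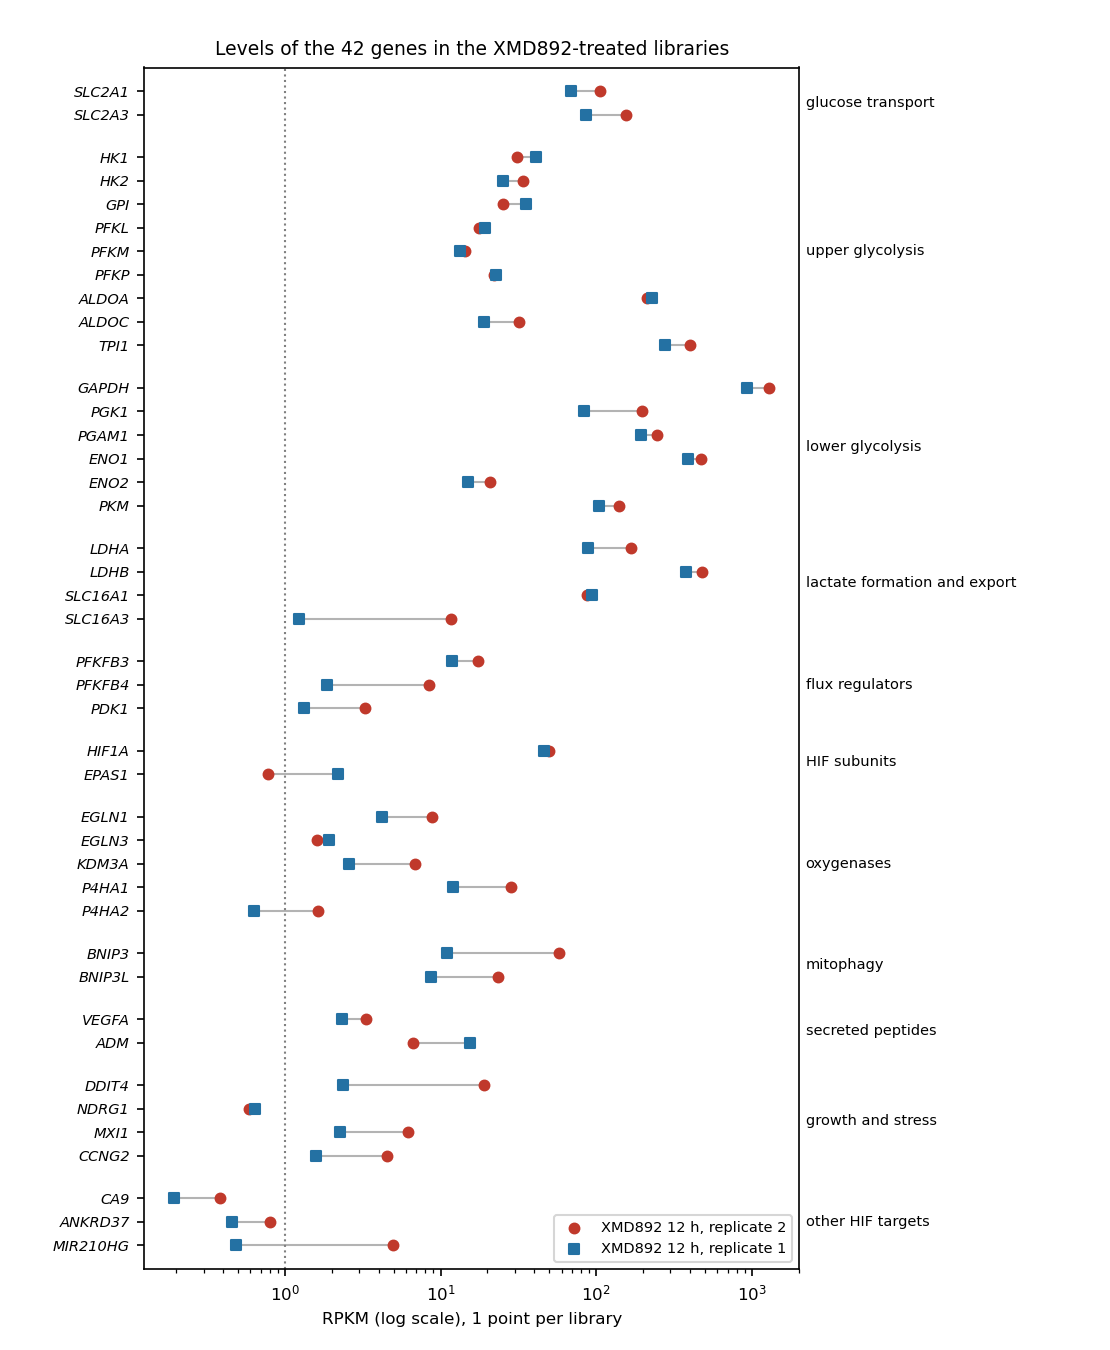
Level of each of the 42 genes in RPKM (log scale) in the XMD892 libraries, replicate 2 as circles and replicate 1 as squares, with a dotted line at 1 RPKM. The glycolytic enzymes lie up to 1299 RPKM, and the widest gaps are those of SLC16A3, MIR210HG, DDIT4 and BNIP3.

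The treated libraries differed in most of these genes, and chiefly in one direction. The difference used throughout subtracts log2(normalized count + 1) of replicate 1 from that of replicate 2. It was computed for the 16148 genes whose normalized count averaged at least 10, and all 42 genes met that minimum. A gap of at least 2-fold toward replicate 2 was found for 15 of the 42 genes, against 4.76% of all tested genes. The same gap toward replicate 1 was found for 2 of the 42, against 6.14% of all tested genes. Of all 1761 genes past 2-fold in either direction, which is 10.9% of those tested, 43.7% were higher in replicate 2, or 33.4% with total reads as the scale. Any excess in replicate 2 was seen for 34 of the 42, against 52.1% of all tested genes. The median difference of the 42 genes was 0.65 on the log2 scale, and that of all tested genes was 0.023. It was 0.52 for the 21 genes of glycolysis and transport and 1.34 for the 21 regulators and targets. In the ranking of all tested genes by this difference, 16 of the 42 lay at percentile 95 or above. With a single library on each side there is no replicate check and no p-value. A further column named for XMD892 at 12 h, whose replicate number no label gives, was not used, so these values do not show which library stands apart. The genes were also chosen with these libraries' differences already known.

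**Figure D2:**
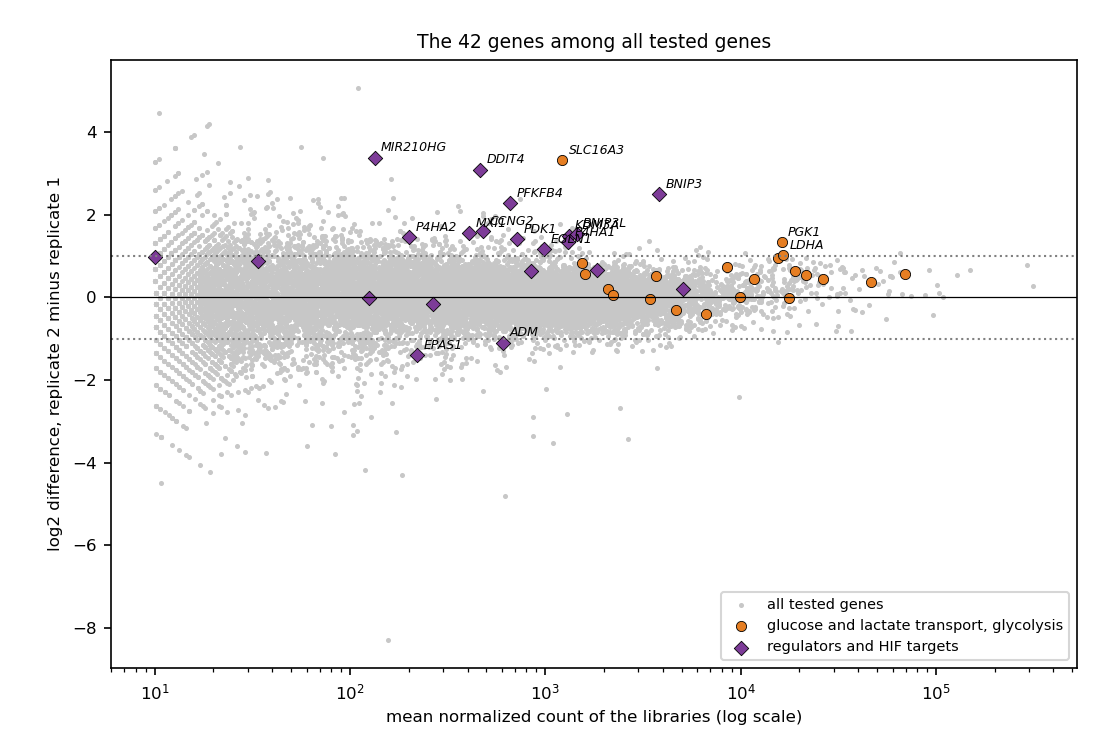
Difference between the XMD892 libraries (log2, replicate 2 minus replicate 1) against the mean normalized count (log scale) for all 16148 tested genes in grey, with the 42 genes in colour and dotted lines at 2-fold. Of the coloured genes 15 lie above the upper line and 2, EPAS1 and ADM, below the lower line.

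For single genes, ratios of normalized counts are given with 95% Clopper-Pearson intervals in parentheses. Reads without molecular identifiers are not independent molecules, so these intervals cover counting error alone. Ratios use the authors' size factors and RPKM uses total reads, so a quotient of RPKM values is shifted by -0.10 on the log2 scale relative to the ratio. They excluded equal levels for 35 of the 42 genes, against 58.1% of all tested genes. For 31 of them the interval lay above equal levels, against 30.8% of all tested genes, and for 4 below, against 27.3%. The 7 genes whose interval held equal levels were PFKL, PFKP, ALDOA, SLC16A1, EGLN3, NDRG1 and CA9. For CA9 the ratio of replicate 2 to replicate 1 was 2.13, with an interval from 0.755 to 6.83, so at this depth no difference was detectable. CA9 also shares 643 exon bases with ARHGEF39 on the opposite strand, whose reads numbered 584 in replicate 2 and 461 in replicate 1.

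Among the glucose transporters, both of the measured genes were higher in replicate 2. SLC2A1 (GLUT1, the ubiquitous carrier and a HIF target) had 10115 reads in replicate 2 against 6015 in replicate 1, or 106 RPKM in replicate 2 against 68.7 RPKM in replicate 1. SLC2A3 (GLUT3, a high-affinity carrier) had 19428 reads in replicate 2 against 9882 in replicate 1, or 156 RPKM in replicate 2 against 86.6 RPKM in replicate 1, a ratio of 1.93 (1.89 to 1.98). Neither reached 2-fold.

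The upper steps of glycolysis, which spend ATP, showed no common direction. Of 9 genes 5 were higher in replicate 2, against 52.1% of all tested genes, and the other 4 in replicate 1. None differed by 2-fold, against 10.9% of all tested genes, and the median difference was 0.055. HK2, the hexokinase that HIF induces, stood at 33.6 RPKM in replicate 2 and 25.2 RPKM in replicate 1, while the constitutive HK1 stood at 31.1 RPKM in replicate 2 and 41.1 RPKM in replicate 1. The mean level was 36.1 RPKM for HK1 and 29.4 RPKM for HK2 with merged exons, and 56.9 RPKM for HK1 and 30.9 RPKM for HK2 with the longest transcript as the length. The direction of each gene between the libraries does not depend on the length. GPI, which converts glucose phosphate to fructose phosphate, stood at 25.2 RPKM in replicate 2 and 35.5 RPKM in replicate 1, a ratio of 0.760 (0.734 to 0.788). The phosphofructokinases PFKL, PFKM and PFKP differed by at most 0.21 on the log2 scale. The major aldolase ALDOA had 16694 reads in replicate 2 and 16517 in replicate 1, a log2 difference of -0.0093. It shares 1657 exon bases with AC093512.2 on the same strand, which was not listed. The minor aldolase ALDOC had 1881 reads in replicate 2 against 1030 in replicate 1, a ratio of 1.80 (1.66 to 1.94).

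The lower steps, which repay ATP and give pyruvate, were all higher in replicate 2. All 6 genes shared that direction, against 52.1% of all tested genes. Their median difference was 0.55, with a range from 0.38 for ENO1 to 1.34 for PGK1. PGK1 (chrX:77910739-78129296, plus strand; positions are those of GENCODE release 29 on GRCh38), the phosphoglycerate kinase that makes the first ATP of the pathway, had 22042 reads in replicate 2 against 8550 in replicate 1, or 198 RPKM in replicate 2 against 83.7 RPKM in replicate 1. Its ratio of 2.53 (2.47 to 2.60) set it apart as the 1 glycolytic enzyme of this stretch past 2-fold. PKM, the pyruvate kinase gene whose splice forms the table does not separate, stood at 139.7 RPKM in replicate 2 and 104 RPKM in replicate 1. ENO2, the second enolase, stood at 20.8 RPKM in replicate 2 and 15.0 RPKM in replicate 1.

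Lactate formation and export held the widest gap of the metabolic genes. SLC16A3 (chr17:82228397-82261129, plus strand) encodes MCT4, the low-affinity exporter that HIF induces in glycolytic tissue. It had 2111 reads in replicate 2 against 206 in replicate 1, or 11.6 RPKM in replicate 2 against 1.24 RPKM in replicate 1, a ratio of 10.1 (8.73 to 11.7). SLC16A1, which encodes the ubiquitous carrier MCT1, had 9413 reads in replicate 2 against 9229 in replicate 1, a ratio of 1.00 (0.974 to 1.03). LDHA (chr11:18394388-18408425, plus strand), the subunit that favours lactate formation, had 21070 reads in replicate 2 against 10148 in replicate 1, or 168 RPKM in replicate 2 against 88.2 RPKM in replicate 1, a ratio of 2.04 (1.99 to 2.09). With total reads as the scale the log2 difference of LDHA was 0.93 and no longer past 2-fold, and the small differences of SLC16A1 and PFKP then changed sign, to -0.097 for SLC16A1 and -0.046 for PFKP. For LDHB the ratio was 1.35 (1.33 to 1.38). LDHB shares 997 exon bases with AC010197.2 on the same strand, which was not listed. The exons of SLC16A3 overlap those of CSNK1D on the opposite strand over 482 bases, and the counting strand is not given in the sources used here. CSNK1D itself had 1961 reads in replicate 2 and 2523 in replicate 1, which is the opposite direction.

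**Figure D3:**
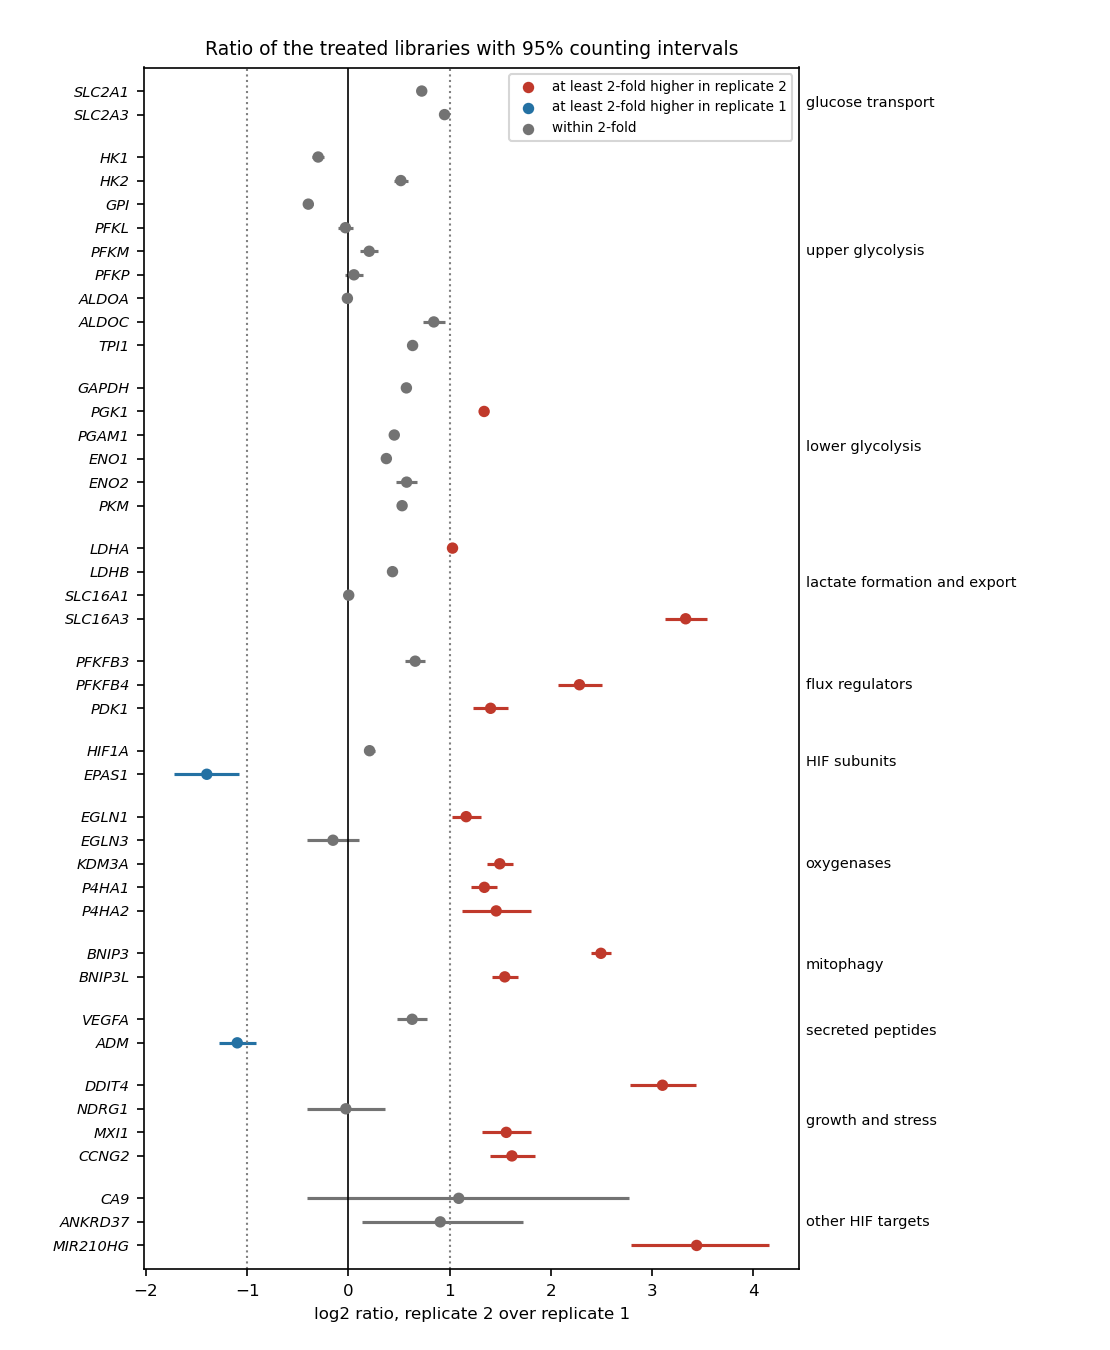
Log2 ratio of normalized counts, replicate 2 over replicate 1, for each of the 42 genes with its 95% counting interval as a bar and dotted lines at 2-fold. Colour gives the 2-fold call, made on log2(normalized count + 1), which is why CA9 at a ratio of 2.13 counts as within 2-fold.

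The 3 enzymes that set glycolytic flux were all higher in replicate 2, against 52.1% of all tested genes. PFKFB4 (chr3:48517684-48562015, minus strand), a bifunctional enzyme that makes and breaks fructose 2,6-bisphosphate, the activator of phosphofructokinase, had 1040 reads in replicate 2 against 210 in replicate 1. That is 8.42 RPKM in replicate 2 against 1.86 RPKM in replicate 1, a ratio of 4.87 (4.19 to 5.67). Its paralog PFKFB3, with the stronger kinase activity, stood at 17.4 RPKM in replicate 2 and 11.8 RPKM in replicate 1, a ratio of 1.58 (1.48 to 1.69). PDK1, the kinase that shuts pyruvate dehydrogenase and so keeps pyruvate out of the citric acid cycle, had 989 reads in replicate 2 against 367 in replicate 1, a ratio of 2.65 (2.35 to 2.99). An antisense gene, AC078883.1, shares 445 exon bases with PDK1 and had 68 reads in replicate 2 and 23 in replicate 1. Unless the count used strand, reads of the pair cannot be told apart where they overlap.

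Shares within an isozyme family are free of the library scale, because both genes of a pair are read from the same library. Their size still depends on the exon lengths used, which are the same in both libraries. PFKFB4 made up 32.7% of the PFKFB3 and PFKFB4 total in replicate 2 and 13.6% in replicate 1. HK2 made up 51.9% of the hexokinase total in replicate 2 and 38.0% in replicate 1. The hexokinase totals themselves were 64.8 RPKM in replicate 2 and 66.3 RPKM in replicate 1, so the makeup differed more than the sum. SLC16A3 gave 11.7% of the carrier pair in replicate 2 and 1.30% in replicate 1. LDHA gave 26.1% of the lactate dehydrogenase total in replicate 2 and 18.9% in replicate 1, and LDHB was the larger part of it in both. ALDOC gave 13.1% of the aldolase total in replicate 2 and 7.70% in replicate 1. The phosphofructokinase makeup moved by at most 2.48 percentage points, and ENO2 stayed at 4.25% of the enolase total in replicate 2 and 3.72% in replicate 1.

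**Figure D4:**
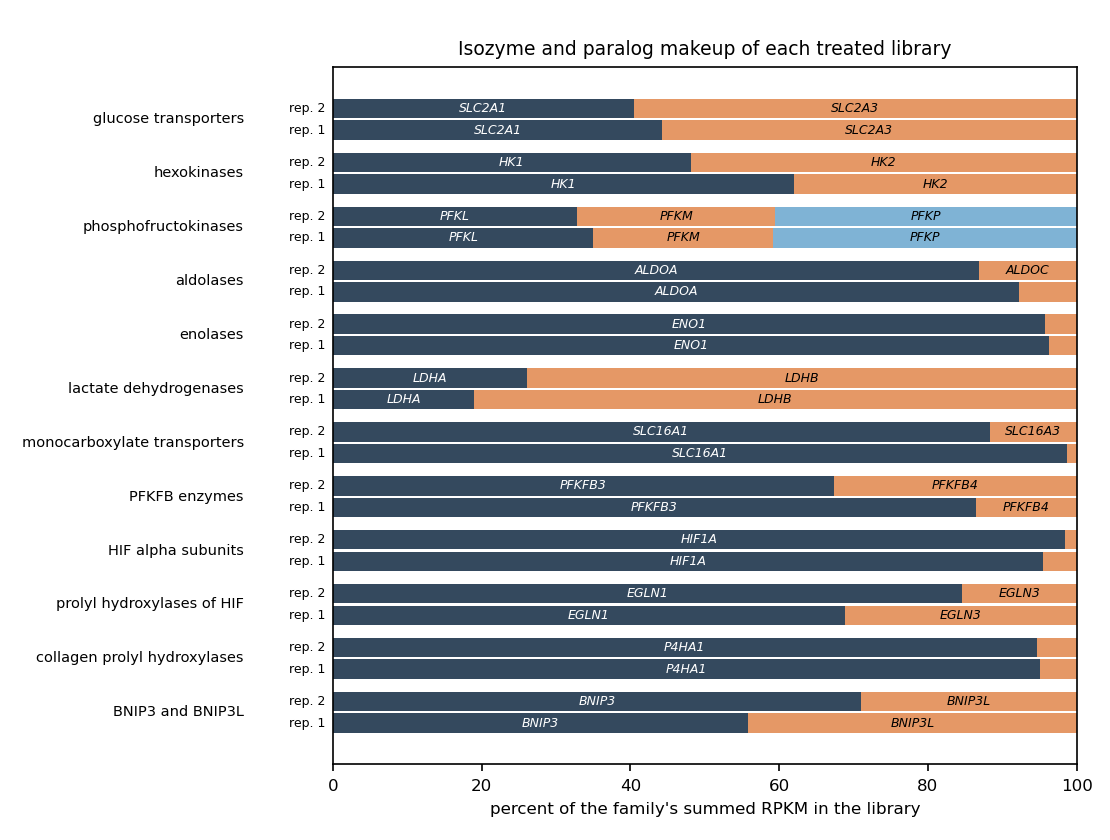
Makeup of 12 isozyme and paralog families as the percent of the family's summed RPKM in replicate 2 (upper bar of each pair) and replicate 1 (lower bar). The boundary lies in nearly the same place in both libraries for the phosphofructokinases, enolases and collagen prolyl hydroxylases, and moves for the PFKFB, EGLN, BNIP3 and hexokinase pairs.

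The genes of the HIF alpha subunits differed in opposite directions. HIF1A had 5176 reads in replicate 2 and 4400 in replicate 1, a ratio of 1.16 (1.11 to 1.20). EPAS1 (chr2:46293667-46386703, plus strand), which encodes HIF2 alpha, had 115 reads in replicate 2 and 298 in replicate 1, or 0.779 RPKM in replicate 2 and 2.20 RPKM in replicate 1, and was 2.64-fold (2.12 to 3.30) higher in replicate 1. EPAS1 was the member of the 42 with the largest difference toward replicate 1. It made up 1.54% of the summed alpha subunit level in replicate 2 and 4.56% in replicate 1.

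Enzymes that use oxygen and 2-oxoglutarate include several of the HIF feedback loop. Of 5 such genes 4 were at least 2-fold higher in replicate 2, against 4.76% of all tested genes. EGLN1 (PHD2), the main HIF hydroxylase, had 1297 reads in replicate 2 against 569 in replicate 1, a ratio of 2.24 (2.03 to 2.48). KDM3A, a histone H3K9 demethylase, had 1848 reads in replicate 2 against 644 in replicate 1, a ratio of 2.82 (2.58 to 3.09). The collagen prolyl hydroxylase subunit P4HA1 had 1787 reads in replicate 2 against 692 in replicate 1, a ratio of 2.54 (2.32 to 2.78). P4HA2, the scarcer subunit, had 280 reads in replicate 2 against 100 in replicate 1, a ratio of 2.75 (2.18 to 3.49). EGLN3 (PHD3) was the exception, with 239 reads in replicate 2 and 261 in replicate 1 and an interval of the ratio from 0.752 to 1.08. EGLN1 therefore gave 84.6% of the EGLN1 and EGLN3 total in replicate 2 and 68.8% in replicate 1.

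The mitophagy receptors, outer membrane proteins that mark mitochondria for removal, were both higher in replicate 2. BNIP3 (chr10:131966455-131982013, minus strand) stood at 57.4 RPKM in replicate 2 and 10.9 RPKM in replicate 1, a ratio of 5.64 (5.29 to 6.02). BNIP3L (NIX) stood at 23.5 RPKM in replicate 2 and 8.63 RPKM in replicate 1, a ratio of 2.92 (2.68 to 3.19). Reads of BNIP3 can be shared with its 39 annotated pseudogenes, of which 6 were listed. Those pseudogenes held 68 reads in replicate 2 and 161 in replicate 1, opposite to BNIP3 and equal to 1.10% of its own reads in replicate 2 and 14.9% in replicate 1. For GAPDH, which has 62 annotated pseudogenes, 2 were listed, with 44 reads in replicate 2 and 36 in replicate 1.

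Genes that slow growth were at least 2-fold higher in replicate 2 in 3 of 4 cases, against 4.76% of all tested genes. DDIT4 (REDD1, chr10:72273920-72276036, plus strand), an inhibitor of mTORC1 that stress and low oxygen induce, had 787 reads in replicate 2 against 90 in replicate 1, or 18.9 RPKM in replicate 2 against 2.36 RPKM in replicate 1. Its ratio was 8.60 (6.90 to 10.8). DDIT4 shares 847 exon bases with DDIT4-AS1 on the opposite strand, which was not listed. MXI1, an antagonist of MYC, had 576 reads in replicate 2 against 192 in replicate 1, a ratio of 2.95 (2.50 to 3.49). CCNG2, an unconventional cyclin linked to cell cycle exit, had 686 reads in replicate 2 against 220 in replicate 1, a ratio of 3.07 (2.63 to 3.58). NDRG1, a stress gene strongly induced by hypoxia in many cell types, had 117 reads in each library.

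Of the secreted peptides, VEGFA, the vessel growth factor, had 975 reads in replicate 2 and 619 in replicate 1, a ratio of 1.55 (1.40 to 1.72). ADM (chr11:10304680-10307397, plus strand), which encodes the vasodilator adrenomedullin, went the other way. It had 368 reads in replicate 2 and 774 in replicate 1, or 6.70 RPKM in replicate 2 and 15.4 RPKM in replicate 1, and was 2.14-fold (1.89 to 2.43) higher in replicate 1. The classical HIF targets therefore did not move as 1 block: NDRG1, EGLN3 and ADM were not higher in replicate 2. ANKRD37, an ankyrin repeat gene, had 42 reads in replicate 2 against 22 in replicate 1, a ratio of 1.88 (1.10 to 3.30), and 909 of its exon bases overlap UFSP2 on the opposite strand, whose reads numbered 387 in replicate 2 and 320 in replicate 1.

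MIR210HG, the host transcript of the hypoxia-induced microRNA miR-210, had 232 reads in replicate 2 against 21 in replicate 1, or 4.94 RPKM in replicate 2 against 0.488 RPKM in replicate 1. The ratio of 10.9 (6.94 to 17.9) was the highest of the 42 genes, on few reads in replicate 1. The gene lies on chromosome 11 from 565660 to 568457 on the minus strand (GRCh38), and the microRNA hairpin lies inside it. The mature microRNA was not measured in these poly(A) libraries. It is shown because its seed, bases 2 to 8 in capitals, is the part that pairs with target transcripts (RefSeq, GRCh38.p14).
hsa-miR-210-3p (chr11:568112-568133, minus strand): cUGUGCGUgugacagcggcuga

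The promoters of the genes with wide gaps are shown next, because HIF is known to bind a core of ACGTG or GCGTG. They are the 3 widest gaps toward replicate 2 among genes with a single annotated start, then PGK1 as the widest of the glycolytic enzymes, then ADM as a gene higher in replicate 1. Each is the 250 bases before the RefSeq start (GRCh38.p14), 5′ to 3′ on the gene's strand, with capitals at ACGTG and at GCGTG read on either strand.
MIR210HG (chr11:568458-568707, minus strand): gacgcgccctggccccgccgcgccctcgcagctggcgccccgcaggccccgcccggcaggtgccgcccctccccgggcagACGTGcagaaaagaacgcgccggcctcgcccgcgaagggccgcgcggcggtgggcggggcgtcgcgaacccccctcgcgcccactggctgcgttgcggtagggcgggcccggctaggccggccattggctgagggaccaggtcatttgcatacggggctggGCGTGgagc
DDIT4 (chr10:72273674-72273923, plus strand): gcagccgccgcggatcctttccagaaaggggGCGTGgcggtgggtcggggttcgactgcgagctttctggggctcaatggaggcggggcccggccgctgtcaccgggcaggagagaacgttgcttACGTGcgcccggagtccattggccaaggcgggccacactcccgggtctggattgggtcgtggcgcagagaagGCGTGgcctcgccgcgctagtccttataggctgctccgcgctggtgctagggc
BNIP3 (chr10:131981924-131982173, minus strand): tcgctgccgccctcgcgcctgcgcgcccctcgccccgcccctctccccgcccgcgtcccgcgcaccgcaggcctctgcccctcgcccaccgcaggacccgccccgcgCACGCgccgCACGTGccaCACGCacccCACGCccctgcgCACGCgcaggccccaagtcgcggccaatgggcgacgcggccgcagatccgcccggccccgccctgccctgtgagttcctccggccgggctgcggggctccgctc
PGK1 (chrX:78103998-78104247, plus strand): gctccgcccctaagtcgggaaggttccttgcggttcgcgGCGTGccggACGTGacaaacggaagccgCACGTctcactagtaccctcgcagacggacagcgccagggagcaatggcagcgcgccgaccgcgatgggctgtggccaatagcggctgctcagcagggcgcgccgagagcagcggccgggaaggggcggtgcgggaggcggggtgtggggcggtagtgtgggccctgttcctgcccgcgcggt
ADM (chr11:10304823-10305072, plus strand): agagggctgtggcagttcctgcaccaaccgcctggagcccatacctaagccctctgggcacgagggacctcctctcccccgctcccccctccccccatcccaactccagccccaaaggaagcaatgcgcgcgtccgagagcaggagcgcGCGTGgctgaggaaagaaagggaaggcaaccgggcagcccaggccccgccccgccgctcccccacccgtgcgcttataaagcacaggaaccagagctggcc
BNIP3 held 2 ACGTG matches, which overlap each other on opposite strands as 1 palindrome, and 4 GCGTG matches, all on the opposite strand. DDIT4 held 1 ACGTG and 2 GCGTG, MIR210HG 1 of each, and PGK1 2 ACGTG and 1 GCGTG. ADM held no ACGTG and 1 GCGTG.

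Such matches are common, and they are a description of letters and not of binding. RefSeq windows were found for 37 of the 42 genes, 67 windows in all, since several genes have more than 1 start and some windows overlap. No window was matched for SLC2A3, VEGFA, NDRG1, SLC16A1 and BNIP3L. ACGTG on either strand was in 26 of the 67 windows (38.8%), against 3533 of 16058 windows of tested genes and 18.5% of all 35116 windows. GCGTG was in 24 of the 67 (35.8%), against 43.1% of the windows of tested genes and 32.2% of all. Among genes at least 2-fold higher in replicate 2, 11 of 23 windows held ACGTG and 12 of 23 held GCGTG. Among genes within 2-fold, 15 of 42 windows held ACGTG and 10 of 42 held GCGTG. The 23 windows came from 14 genes, with 5 from SLC16A3 alone. The 42 windows came from 21 genes, with 7 each from HK1 and PFKM and 4 from PFKP. Windows of the same gene are not independent, so whether the motifs differ between these groups of genes was not tested. Both EPAS1 and ADM, the genes higher in replicate 1, had a window with GCGTG and without ACGTG. Both motifs contain CpG, and the windows differ in it: the median number of CpG was 24 in the windows of the 42 genes, 20 in those of tested genes and 11 in all.

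Other genes of these pathways were taken from lists that were chosen with earlier results of these data known. They describe the same 2 libraries further and are no independent check. All 33 further HIF targets were tested, and 24 of them were higher in replicate 2, with a median difference of 0.43. At least 2-fold higher in replicate 2 were 8 of them, namely BHLHE41, FAM162A, INSIG2, PLOD2, PPFIA4, STC1, TMEM45A and VLDLR. PLOD2, a lysyl hydroxylase of collagen, had 1321 reads in replicate 2 against 474 in replicate 1, a ratio of 2.74 (2.46 to 3.05). FAM162A, a mitochondrial protein, had 1717 reads in replicate 2 against 713 in replicate 1, a ratio of 2.37 (2.17 to 2.59). STC1, the secreted stanniocalcin, had 736 reads in replicate 2 against 175 in replicate 1, a ratio of 4.13 (3.50 to 4.90). The ratio was 4.39 for PPFIA4, 2.67 for INSIG2, 2.61 for TMEM45A and 2.14 for VLDLR. BHLHE41, a transcriptional repressor, had 34 reads in replicate 2 and 1 in replicate 1, a ratio of 33.4 with an interval from 5.61 to 1358, so its size is barely set.

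None of the 8 further HIF partners and regulators differed by 2-fold. Among all tested genes 10.9% did, so for so short a list that count says little. Their median difference was -0.13. ARNT had 839 reads in replicate 2 and 758 in replicate 1, and VHL had 1106 reads in replicate 2 and 1246 in replicate 1. Of 17 other glycolysis isozymes 10 were listed and 9 tested. PFKFB1 was past 2-fold toward replicate 1, on 5 reads in replicate 2 and 14 in replicate 1, where the interval did not exclude equal levels.

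Genes that feed pyruvate into mitochondria and turn the citric acid cycle did not share the direction of the glycolytic genes. Of 15, 6 were higher in replicate 2, against 52.1% of all tested genes, and the other 9 in replicate 1. None differed by 2-fold, against 10.9% of all tested genes, and the median difference was -0.069. Citrate synthase, CS, had 3495 reads in replicate 2 and 5560 in replicate 1, and the oxoglutarate dehydrogenase OGDH had 3189 reads in replicate 2 and 5057 in replicate 1. PDP1, the phosphatase that reverses the action of PDK1, had 346 reads in replicate 2 and 634 in replicate 1 and was 1.86-fold (1.63 to 2.13) higher in replicate 1. PDK1 and PDP1 therefore differed in opposite directions between these libraries. The pentose phosphate genes had 4 of 7 higher in replicate 2 and none past 2-fold, with a median of 0.29. The 3 listed gluconeogenesis genes of 4 had a median of 0.26 and none past 2-fold. TXNIP, a brake on glucose uptake that responds to glucose through MondoA, had 834 reads in replicate 2 against 207 in replicate 1, a ratio of 3.96 (3.40 to 4.63). ARRDC4, the other target of MondoA in the list, had 177 reads in replicate 2 and 162 in replicate 1, and MLXIP, which encodes MondoA, had 1252 reads in replicate 2 and 2092 in replicate 1.

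**Figure D5:**
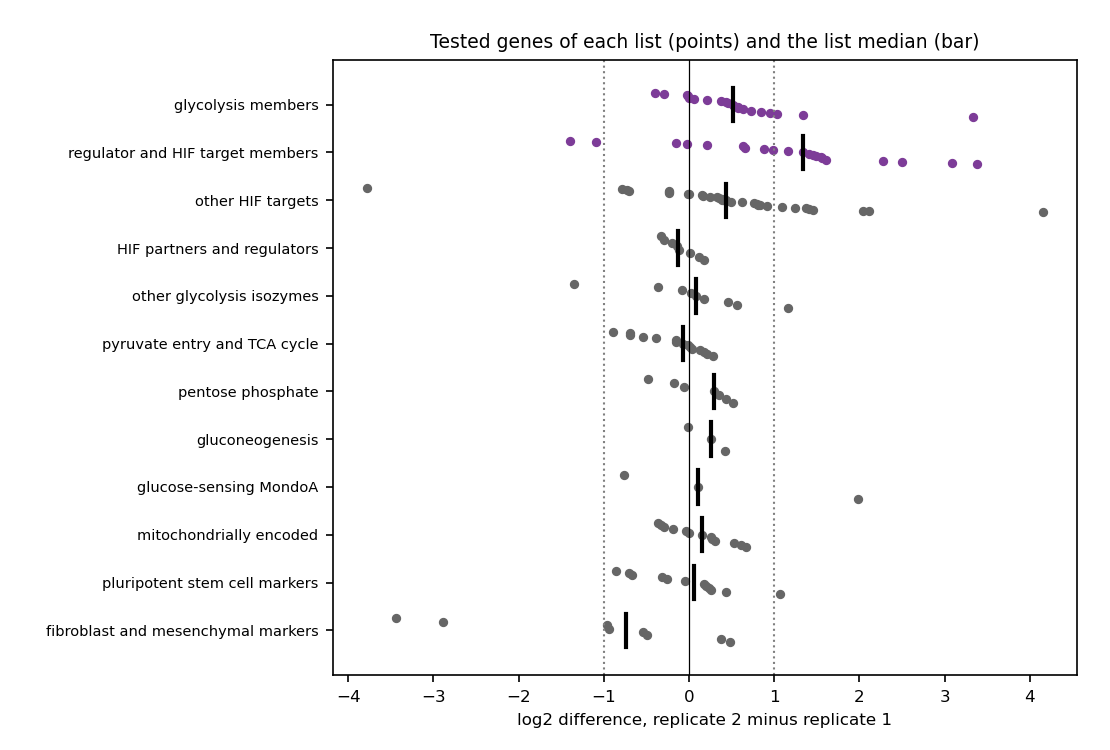
Log2 difference, replicate 2 minus replicate 1, of every tested gene in each list as points, with the list median as a bar and dotted lines at 2-fold. The medians are 0.52 for the glycolysis genes, 1.34 for the regulators and HIF targets and 0.43 for further HIF targets, and -0.74 for the fibroblast and mesenchymal markers.

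The 42 genes lie on 18 chromosomes, with 8 on chromosome 10 and 6 on chromosome 12. The other tested genes of chromosome 10 had a median difference of 0.033 and those of chromosome 12 of 0.043. SLC2A3, GAPDH, TPI1, ENO2 and LDHB lie within the first 22 Mb of chromosome 12, and their median difference was 0.58. The 158 other tested genes of that stretch had a median of 0.084. Level and length ordered the differences weakly: across the 42 genes Spearman's rho with the difference was -0.25 for mean RPKM and -0.11 for exon length, as a description, since these genes share the same libraries and are not independent.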

How the data were processed

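The authors' deposited values are a signal, reads per gene over a size factor. That is read from the values: in both columns used, 100% were whole multiples of a step within 0.01 reads, and dividing by the step recovered the reads. The size factor was 0.948 in replicate 2 and 0.932 in replicate 1. The submitters' processing notes name, with no role or order, STAR, DESeq2 1.26.0, Trimmomatic 0.36, featureCounts 1.5.3 and the build hg38. The annotation and the strand setting of the count stand in none of the sources used here. Of 9 columns, 7 were not used, since their treatment, time and replicate number match none of the 4 labels. They include a column for XMD892 at 12 h with another replicate number, and untreated columns of another time than the E8 labels. The planned test of XMD892 against E8 was therefore not run.

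Symbols were matched exactly to GENCODE release 29 (GRCh38), and 19262 had 1 gene ID and an exon length. RPKM used merged exon lengths and each library's recovered reads. Ratios are of normalized counts, and differences used a pseudocount of 1, which understates low genes. TMM factors came from edgeR 4.0.16 (R 4.3.3), and the rest from Python 3.11.15 with scipy 1.17.1. The calculation of the difference and its interval was checked on simulated counts. That check required recovery only under counting error, the model behind the interval, so it says nothing of spread between cultures. Genes past 2-fold, the 5 most abundant and their paralogs were named by rule. VEGFA, NDRG1, CA9, ANKRD37, GPI, PKM, CSNK1D and the named ARNT, VHL, CS, OGDH, PDP1, ARRDC4 and MLXIP fall outside that rule and were chosen after their values were seen. Also outside it, among others, are HK1, HK2, SLC2A1, SLC2A3, ALDOA, ALDOC and the markers SALL4, DNMT3B and PODXL. Some items that the rule names are left out. Members, lists and the rule were chosen with earlier results of these data known.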

Additional observations from a re-analysis of the deposited data

How the results depend on the processing

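Scaled by total reads and not by size factors, the median difference of the 42 genes was 0.53 on the log2 scale, and the median of all genes shifted by -0.10. Relative to all genes, the 42 stood 0.61 higher on that scale and 0.62 higher on the authors' scale. Of 17 genes past 2-fold 16 remained so, LDHA being the exception, and CA9 missed the minimum count. SLC16A1 and PFKP changed sign there, and SLC16A1 also with TMM factors (-0.0054). A pseudocount of 5 moved CA9 to 0.71 and MIR210HG to 3.18. All 17 remained with TMM factors, a pseudocount of 5, no minimum count or a minimum of 50. Of genes past 2-fold over all tested genes, 43.7% were higher in replicate 2, or 33.4% with total reads as the scale. That count was 3350 with no minimum and 711 with a minimum of 50, against 1761, because each alternative tests more or fewer genes of low count. The number of the 42 genes at 1 RPKM, 36 in both libraries, ran from 37 to 38 in single libraries and was 39 with the longest transcript as the length. No paired analysis was possible because the E8 libraries were not analysed here, and leaving out a library leaves no difference to compute. Depth limits CA9, ANKRD37 and the low side of MIR210HG, SLC16A3 and DDIT4.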
